A study of Mus musculus with 2 samples.

Results

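Muscle splicing regulators are here the 10 genes Mbnl1, Mbnl2, Mbnl3, Celf1, Celf2, Rbfox1, Rbfox2, Ptbp1, Rbm20 and Rbm24, taken by gene symbol from 55536 annotated genes, with the 131 annotated transcripts that these genes have. Total RNA was sequenced from gastrocnemius, the large calf muscle, of male B6CASTF1/J mice, hybrids of C57BL/6J and CAST/EiJ, at an age of 14 days. The only group held 2 libraries, replicate 1 and replicate 2, each made from 300 ng of RNA, with no treatment and no second age. The labels call them biological replicates of separate biosamples, yet mention 3 males and give 1 donor identifier for both. Whether animals were pooled or separate is thus not settled. A p-value here sets the difference between these 2 libraries against counting error only. That difference may be technical, and no spread between animals was estimated. The reads were quantified by the authors against a reference without CAST alleles (mm10, GENCODE M21), and alleles were not separated. Each library was quantified on 2 routes, from alignments to the transcriptome (the first quantification) and directly from the reads (the second quantification). TPM, the share of all transcripts scaled to a fixed total, is a level corrected for transcript length. The tissue label was checked against 5 muscle fibre markers, which ranged from 2839 TPM for Actn3 to 28619.7 TPM for Acta1.

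The members are RNA-binding proteins that choose between alternative exons. MBNL proteins move into their adult role after birth and promote adult splicing patterns in striated muscle, while CELF proteins oppose them at many exons and decline during postnatal development. Loss of MBNL function by trapping on expanded repeat RNA underlies myotonic dystrophy. RBFOX proteins bind UGCAUG beside exons used in muscle and brain, PTBP1 represses exons of differentiated tissue, RBM24 promotes muscle exons, and RBM20 represses exons of titin in heart and muscle. Several of these genes splice their own alternative exons, and those exons are the subject of most of what follows.

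The exons that separate the protein forms of MBNL1 and MBNL2 are shown first because transcript usage turns on them. Each has the same length in both genes. In the 54-base and 95-base exons, capitals mark the bases that differ between the 2 paralogues. In the 36-base exons, capitals mark TGCATG, the DNA form of the RBFOX recognition sequence. All are read 5′ to 3′ on the transcript strand from the GENCODE M21 transcripts (GRCm38).
Mbnl1 54-base exon, chr3:60614683-60614736, plus strand: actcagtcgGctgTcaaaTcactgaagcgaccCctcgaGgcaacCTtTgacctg
Mbnl2 54-base exon, chr14:120395712-120395765, plus strand: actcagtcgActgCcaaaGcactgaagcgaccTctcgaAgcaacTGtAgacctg
Mbnl1 36-base exon, chr3:60621423-60621458, plus strand: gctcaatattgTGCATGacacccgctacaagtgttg
Mbnl2 36-base exon, chr14:120403336-120403371, plus strand: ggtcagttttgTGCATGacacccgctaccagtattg
Mbnl1 95-base exon, chr3:60622146-60622240, plus strand: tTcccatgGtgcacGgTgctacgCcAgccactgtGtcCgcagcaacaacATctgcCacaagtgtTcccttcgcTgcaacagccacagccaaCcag
Mbnl2 95-base exon, chr14:120404638-120404732, plus strand: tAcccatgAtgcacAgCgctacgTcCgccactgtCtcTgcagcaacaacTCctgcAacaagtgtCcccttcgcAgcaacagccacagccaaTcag

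The paralogous exons were alike in sequence, with 46 of 54, 31 of 36 and 81 of 95 bases identical (85.2%, 86.1% and 85.3%). The 54-base exon is known for promoting nuclear localisation of MBNL1 and is used more in fetal tissue, and the 36-base exon has been linked to self-association of the protein. The 54-base and 36-base exons keep the reading frame, and the 95-base exon changes the frame of the C-terminus. TGCATG stood in both 36-base exons. Over all 1033 annotated exons of that length, both of these included, it stood in 10 (0.968%), and its reverse complement CATGCA in 5 (0.484%). A match describes the letters and shows no binding.

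The MBNL genes held both ends of the range of levels. Mbnl1 (ENSMUSG00000027763.13, chromosome 3, 60472830 to 60629750) was the most abundant member, at 144 TPM in replicate 1 and at 139.7 TPM in replicate 2, a mean of 142 ± 3.10 TPM (SD, n = 2). Mbnl2 (ENSMUSG00000022139.17, chromosome 14, 120275669 to 120431697) stood at 125 TPM in replicate 1 and at 114 TPM in replicate 2. Mbnl3, the MBNL form known from embryonic muscle and placenta (ENSMUSG00000036109.17, X chromosome, 51117269 to 51206532), stood at 0.930 TPM in replicate 1 and at 0.690 TPM in replicate 2, from 104 and 80.0 expected counts. Mbnl1 was 1.19 ± 0.0497 times Mbnl2 and 179 ± 33.6 times Mbnl3 in TPM (SD, n = 2 for both). In both libraries and both quantifications Mbnl1 lay above Mbnl2 and Mbnl2 above Mbnl3.

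Rbm24 and the RBFOX genes formed the next tier. Rbm24 (ENSMUSG00000038132.6, chromosome 13, 46418434 to 46431095) stood at 83.6 TPM in replicate 1 and at 64.8 TPM in replicate 2. Rbfox1, the RBFOX form of neurons and striated muscle (ENSMUSG00000008658.16, chromosome 16, 5885355 to 7411526), stood at 57.2 TPM in replicate 1 and at 58.8 TPM in replicate 2. Rbfox2, the more widely expressed paralogue (ENSMUSG00000033565.18, chromosome 15, 77078990 to 77307004), stood at 46.96 TPM in replicate 1 and at 51.9 TPM in replicate 2. Rbfox1 was 1.18 ± 0.0597 times Rbfox2 in TPM (SD, n = 2), yet 0.723 ± 0.0183 times in expected counts, which are not corrected for length. Rbm24 and Rbfox1 are neighbours in this order that did not differ beyond their spread, since in the second quantification Rbfox1 (81.4 and 85.4 TPM) lay within the range of Rbm24 (94.7 and 77.5 TPM).

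Rbm20, the CELF genes and Ptbp1 followed at lower levels. Rbm20 (ENSMUSG00000043639.15, chromosome 19, 53677306 to 53867080) stood at 32.6 TPM in replicate 1 and at 27.7 TPM in replicate 2. Celf2 (ENSMUSG00000002107.18, chromosome 2, 6539694 to 7509563) stood at 24.2 TPM in replicate 1 and at 24.4 TPM in replicate 2, and Celf1 (ENSMUSG00000005506.16, chromosome 2, 90940382 to 91019497) stood at 18.4 TPM in replicate 1 and at 21.5 TPM in replicate 2. Ptbp1 (ENSMUSG00000006498.16, chromosome 10, 79854427 to 79864771) stood at 18.2 TPM in replicate 1 and at 15.6 TPM in replicate 2. Rbm20 and Celf2 changed places in the second quantification, where Rbm20 averaged 33.8 ± 3.60 TPM and Celf2 38.3 ± 1.41 TPM (SD, n = 2 for both), so their order is not settled. The other neighbours stayed apart in every library and quantification, but for Celf1 and Ptbp1 only by 18.4 against 18.2 TPM in replicate 1. Mbnl1, taken as the chief counterweight of CELF1, was 7.17 ± 0.953 times Celf1 in TPM (SD, n = 2).

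**Figure D1:**
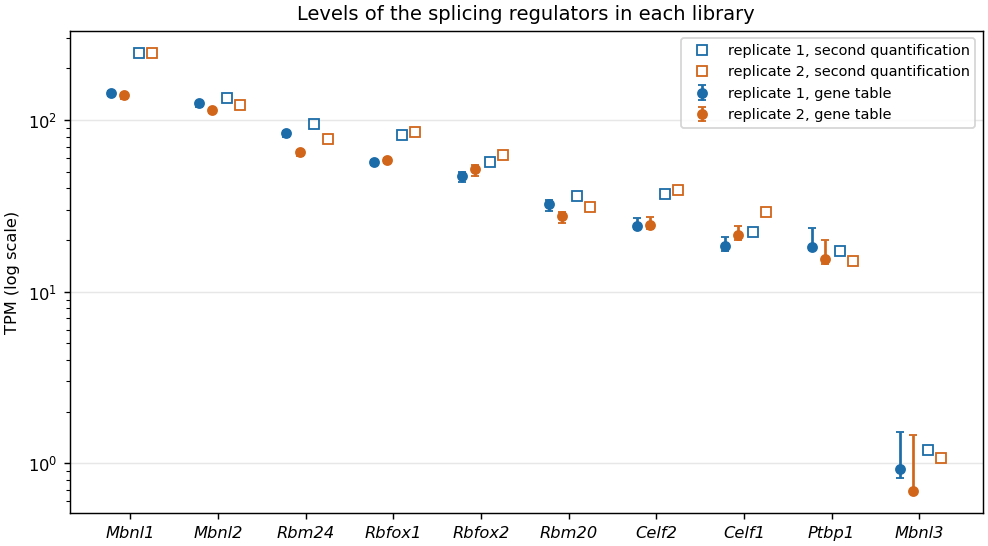
TPM on a log scale for the 10 members, ordered by mean level. Filled circles are the gene table with bars for the 95% interval that the quantifier gave, open squares are the second quantification, blue is replicate 1 and orange replicate 2. The most abundant 9 sit between 15.2 and 245 TPM, and Mbnl3 sits near 1 TPM.

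Ranked among nuclear protein-coding genes whose mean level reached 1 TPM, Mbnl1 stood above 96.6% of them, Mbnl2 above 96.0%, Rbm24 above 93.8%, Rbfox1 above 92.2% and Rbfox2 above 90.6%. Rbm20 stood above 84.9%, Celf2 above 81.1%, Celf1 above 77.1% and Ptbp1 above 73.4%. Mbnl3, below 1 TPM on average in the gene table, averaged 1.13 ± 0.0868 TPM (SD, n = 2) in the second quantification. In whole muscle, fewer cells of a type and less RNA per cell cannot be told apart. Overlapping genes took few reads: the single overlapping gene above 0.5 TPM was E130317F20Rik, on the strand opposite Ptbp1, at 0.690 TPM in replicate 1 and at 0.590 TPM in replicate 2.

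Mbnl1 was spread over many transcripts, with 2 long protein-coding forms in the lead in the first quantification. Mbnl1-201 (5655 bases) took 23.9% of the gene's TPM in replicate 1 and 23.3% in replicate 2, and Mbnl1-214 (5151 bases) took 18.7% and 17.9%. Mbnl1-201 skips the 54-base exon and holds the 36-base exon, while Mbnl1-214 holds the 54-base exon and skips the 36-base exon. Of the 25 annotated Mbnl1 transcripts, 5 took at least 10% in either quantification, and 4 were at 0 in both libraries in the first quantification. The others of these 5 were Mbnl1-221 (14.0% and 12.3%), the noncoding Mbnl1-208 (10.1% and 9.93%) and Mbnl1-210 (3.73% and 3.66%). In the second quantification Mbnl1-210 took 15.3% and 23.1%, and Mbnl1-201 took 18.9% and 18.3%. By that route Mbnl1-221 took 14.9% and 12.4%, and Mbnl1-214 took 11.9% and 11.2%. The order of these forms thus depended on the route.

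Both forms of the 54-base exon of Mbnl1 were present in quantity. Inclusion, the TPM of transcripts that hold an exon as a percentage of the TPM of those that hold or skip it, was 39.6% in replicate 1 and 45.3% in replicate 2 (42.4 ± 4.07%; SD, n = 2). The second quantification gave 36.6% and 35.2%. The 36-base exon was included at 56.3% in replicate 1 and 58.6% in replicate 2, and the second quantification gave 56.2% and 61.8%. The 95-base exon was included at 89.6% in replicate 1 and 85.9% in replicate 2. The second quantification gave 87.3% and 83.7%. Of the 3 exons, the 54-base one had ranges that did not overlap between the routes.

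The 54-base and 36-base exons of Mbnl1 were assigned to different transcripts. Among the 11 transcripts that span all 3 exons, those that skip the 54-base exon and hold both others took 52.0% of TPM in replicate 1 and 54.1% in replicate 2, and the one that holds the 54-base exon, skips the 36-base exon and holds the 95-base exon took 30.2 ± 0.932% (SD, n = 2). The single transcript annotated with all 3 exons was at 0 in both libraries and both quantifications. The leading transcripts compared for the 54-base exon differ in 612 bases, of which the exon is 54, so reads outside the exon also set these shares.

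An exon of 1049 bases (chromosome 3, 60528756 to 60529804), which holds the start codon of Mbnl1-201, was included at 75.8% in replicate 1 and 68.7% in replicate 2, and at 74.2% and 75.7% in the second quantification. A 154-base coding exon was included at 93.3% and 97.8%, and at 84.7% and 92.99% in the second quantification. Its shorter 49-base version was included at 62.6% and 85.0%, by transcripts that held or skipped it with only 10.3% and 8.99% of the gene's TPM. The second quantification gave 40.1% and 61.5% for that version. Among protein-coding transcripts both versions were included at 100% by the first route. A 111-base coding exon held only by the 576-base transcript Mbnl1-210 was included at 4.35 ± 0.144% in the first and 23.4 ± 5.94% in the second quantification (SD, n = 2 for both). That short transcript stood at 5.38 TPM in replicate 1 and at 5.12 TPM in replicate 2 by the first route, but 37.4 and 56.7 TPM by the second. The Mbnl1 total was higher by the second route too, 245.2 TPM in replicate 1 and 245.5 TPM in replicate 2. Every member except Ptbp1 had a higher mean by that route, such as Rbfox1 with 83.4 against 58.0 TPM. The part of Mbnl1-210 in the higher Mbnl1 total was therefore not separated from this wider shift.

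**Figure D2:**
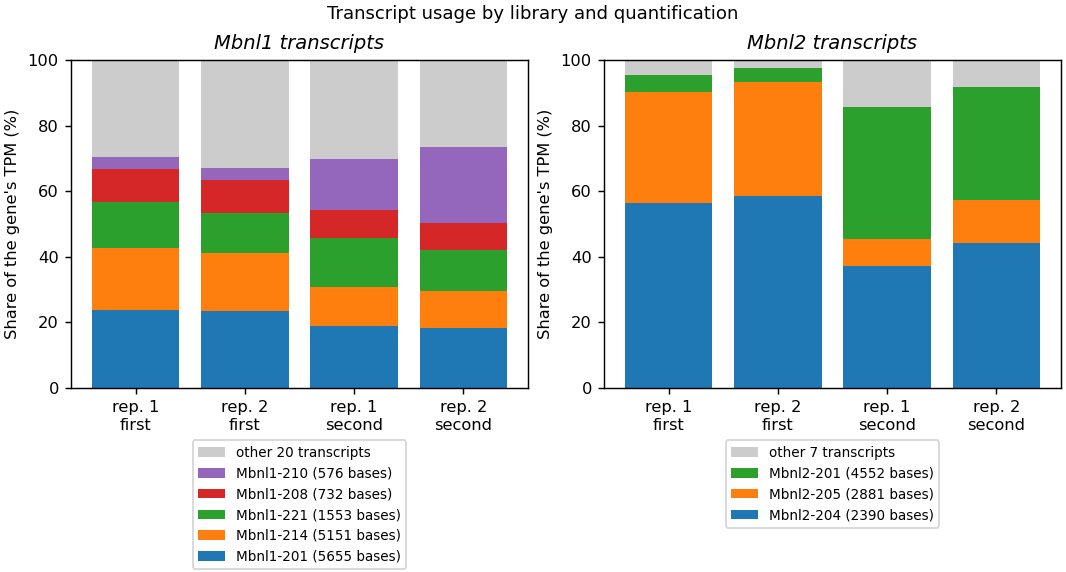
Share of the gene's TPM by transcript for Mbnl1 (left) and Mbnl2 (right), in each library and quantification. Colours are the transcripts that reached an average of 10% by either route, and grey is the sum of all others. The second quantification gives Mbnl1-210 15.3% in replicate 1 and 23.1% in replicate 2, and Mbnl2-201 (green, right) goes from 5.15% and 4.21% in the first to 40.2% and 34.6% in the second.

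Mbnl2 was divided very differently by the 2 quantifications. In the first, Mbnl2-204 (2390 bases, without the 54-base exon) took 56.5% of TPM in replicate 1 and 58.7% in replicate 2, and the noncoding 2-exon transcript Mbnl2-205 took 33.9% and 34.7%. In the second, Mbnl2-204 took 37.2% and 44.1%, and Mbnl2-201 (4552 bases, with the 54-base exon) took 40.2% and 34.6%. The 54-base exon was therefore included at 8.25% in replicate 1 and 6.70% in replicate 2 by the first route, and at 45.9% and 41.4% by the second. The gap between routes was far larger than the spread between libraries.

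The authors' interval for Mbnl2-201 in the first quantification, 3.86 to 7.47 TPM for replicate 1 and 1.86 to 5.87 TPM for replicate 2, does not reach the 54.3 and 42.6 TPM of the second. The leading transcripts with and without the exon differ in 2162 bases. Within the second quantification alone, inclusion of the 54-base exon was 43.6 ± 3.21% in Mbnl2 and 35.9 ± 0.937% in Mbnl1 (SD, n = 2 for both). Within the first, it was 7.47 ± 1.10% in Mbnl2 and 42.4 ± 4.07% in Mbnl1 (SD, n = 2 for both). Which paralogue used the exon more thus depended on the quantification.

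The 36-base exon was the point on which the paralogues differed in the same direction by both routes. Mbnl2 included it at 0.757% in replicate 1 and 0% in replicate 2, and at 10.6% and 5.58% in the second quantification, all far below the 56.2% to 61.8% of Mbnl1. The 95-base exon of Mbnl2 was included at 64.5% in replicate 1 and 64.4% in replicate 2, against 90.3% and 85.7% in the second quantification. Its skipping was due to the noncoding Mbnl2-205 alone, and among protein-coding transcripts inclusion was 100%. Mbnl3, with about 100 counts a library, gave no firm transcript shares: Mbnl3-202 took 68.8 ± 5.12% and Mbnl3-203 took 19.2 ± 11.8% (SD, n = 2 for both).

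Rbfox1 and Rbfox2 each carry a 40-base exon known mainly from brain and a 43-base exon known mainly from muscle, used as alternatives to each other near the C-terminus. They are shown because the choice between them marks the tissue form of the protein. Capitals mark the bases that differ between the paralogues.
Rbfox1 40-base exon, chr16:7363865-7363904, plus strand: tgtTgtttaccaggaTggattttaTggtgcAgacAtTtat
Rbfox2 40-base exon, chr15:77094451-77094490, minus strand: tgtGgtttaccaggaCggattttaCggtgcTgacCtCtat
Rbfox1 43-base exon, chr16:7369801-7369843, plus strand: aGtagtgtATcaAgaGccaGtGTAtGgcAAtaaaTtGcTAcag
Rbfox2 43-base exon, chr15:77091812-77091854, minus strand: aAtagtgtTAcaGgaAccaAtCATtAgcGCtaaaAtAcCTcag

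The 40-base exons shared 34 of 40 bases (85%) between the genes, and the 43-base exons 27 of 43 (62.8%). In Rbfox1 the 43-base exon was included at 51.0% in replicate 1 and 51.2% in replicate 2, and the 40-base exon at 49.0% and 48.8%. The second quantification gave 47.0% and 47.6% for the 43-base exon. Counted in expected reads, the 43-base exon took 31.7%, because its leading transcript, Rbfox1-203, is annotated with 1407 bases and the leading transcript of the 40-base exon, Rbfox1-201, with 3061. These forms differ in 2220 bases, so the share is borne mostly by sequence other than the exons themselves. Markers of neurons were near 0: the summed level of Rbfox3, Snap25, Elavl4 and Syt1 was 0.21 TPM in replicate 1 and 0.24 TPM in replicate 2, with Elavl4 listed at 0.

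Rbfox2 used the 40-base exon more than the 43-base exon. The 43-base exon was included at 35.5% in replicate 1 and 37.1% in replicate 2, and the 40-base exon at 59.2% and 60.6%. The second quantification gave 34.8% and 37.5% for the 43-base exon and 52.5% and 55.7% for the 40-base exon. In expected reads the 43-base exon of Rbfox2 took 7.89%, since its transcript Rbfox2-207 has 1041 bases, nearly all coding, and the leading form Rbfox2-203 has 6573.

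A further exon of Rbfox2, of 93 bases, lies in the region that encodes the RNA-binding domain, and forms that skip it have been described as unable to bind RNA normally. It is printed because its skipping form was abundant.
Rbfox2 93-base exon, chr15:77105577-77105669, minus strand: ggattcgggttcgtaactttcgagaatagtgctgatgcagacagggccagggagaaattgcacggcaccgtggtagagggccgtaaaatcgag
It was included at 66.7% in replicate 1 and 65.7% in replicate 2, and at 65.3% and 65.8% in the second quantification. As a share of expected reads inclusion was 92.2%. The leading skipping transcript was the same Rbfox2-207, so the 93-base and 43-base shares of Rbfox2 rest on 1 annotated form and are not independent.

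**Figure D3:**
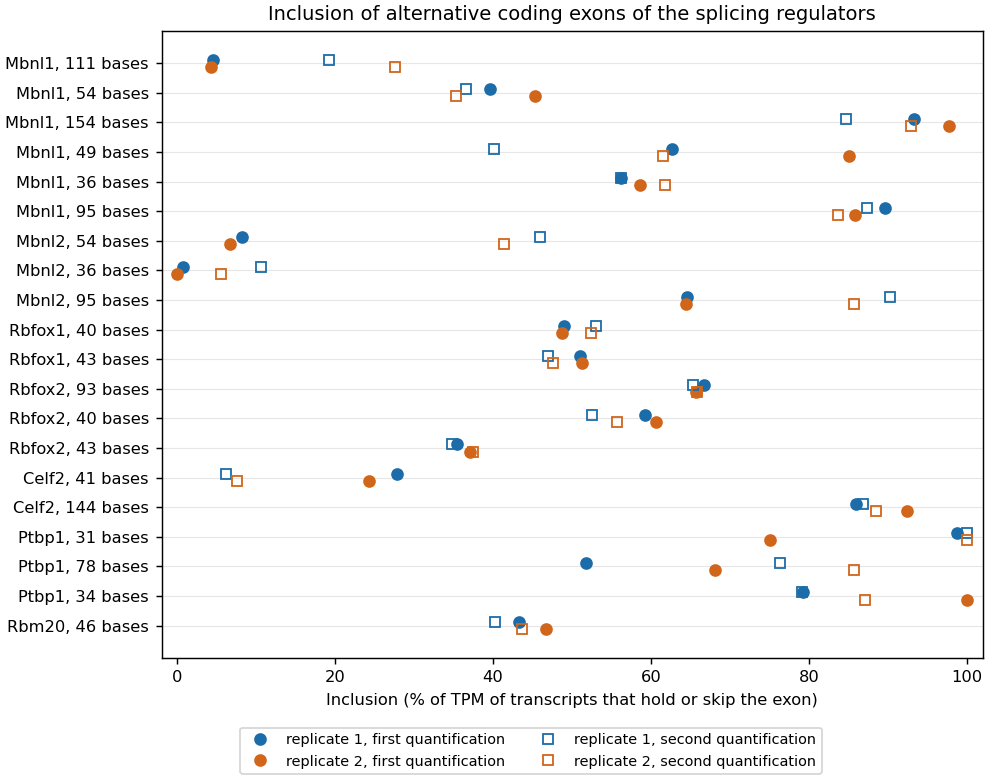
Inclusion of alternative coding exons, as a percentage of the TPM of transcripts that hold or skip the exon. Filled circles are the first and open squares the second quantification, blue is replicate 1 and orange replicate 2. Circles and squares lie close together for the Rbfox2 93-base exon and far apart for the Mbnl2 54-base exon.

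The CELF genes, antagonists of MBNL at many exons, differed from each other in transcript class. Of 14 annotated Celf1 transcripts 4 were at 0 in both libraries in the first quantification, and the gene was led by Celf1-201 (22.3% in replicate 1 and 27.1% in replicate 2) and Celf1-206 (27.3% and 17.9%), which differ only by a 152-base exon (chromosome 2, 90987665 to 90987816) that holds the start codon of Celf1-201. That exon was included at 27.9% in replicate 1 and 35.1% in replicate 2, and at 40.8% and 27.7% in the second quantification. By that route Celf1-201 took 31.9% and 21.1%, and Celf1-206 took 14.6% and 25.9%. Which of these forms was the larger in each library thus depended on the route. Celf2 was led by Celf2-206 (5470 bases), with 33.8% and 33.7% in the first and 34.5% and 32.1% in the second quantification. A 41-base exon of Celf2 held only by Celf2-228, a transcript of the class nonsense-mediated decay (predicted to be degraded because of an early stop), was included at 26.1 ± 2.56% in the first but 6.86 ± 0.991% in the second quantification (SD, n = 2 for both). A 144-base coding exon of Celf2 was included at 86.0% in replicate 1 and 92.4% in replicate 2.

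PTBP1 limits its own level by skipping a 34-base exon, which leads to decay of the transcript, so this exon is shown.
Ptbp1 34-base exon, chr10:79862014-79862047, plus strand: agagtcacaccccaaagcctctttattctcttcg
It was included at 79.3% in replicate 1 and 100% in replicate 2, and at 79.2% and 87.1% in the second quantification. Ptbp1 had 1079.97 and 926 expected counts, and its transcript shares varied more between the libraries than those of deeper members: the decay form Ptbp1-201 was at 2.33 TPM in replicate 1 and listed at 0 in replicate 2, against 3.34 and 1.85 TPM in the second quantification. The coding form Ptbp1-216 took 34.8 ± 5.57% in the first and 75.3 ± 6.13% in the second quantification (SD, n = 2 for both). A 78-base coding exon, known to alter the repressive strength of PTBP1, was included at 51.7% in replicate 1 and 68.0% in replicate 2, and at 76.3% and 85.7% in the second quantification.

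Rbm20 and Rbm24 have few annotated transcripts. Rbm20 has 3 annotated transcripts: Rbm20-203, which holds the coding sequence for the whole protein, took 38.4% in replicate 1 and 37.8% in replicate 2, and Rbm20-201, of the class nonsense-mediated decay, took 29.3% and 33.1%. The third, Rbm20-202, a coding fragment of 465 bases, took 32.3% and 29.1%, and 20.4% and 18.2% in the second quantification. The decay form is distinguished by a 46-base exon.
Rbm20 46-base exon, chr19:53852354-53852399, plus strand: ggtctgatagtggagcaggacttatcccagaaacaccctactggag
That exon was included at 43.3% in replicate 1 and 46.7% in replicate 2, and at 40.2% and 43.7% in the second quantification, but the leading transcripts with and without it differ in 3747 bases. Rbm24-201 (3086 bases) took 87.1% of Rbm24 in replicate 1 and 88.0% in replicate 2, and 98.3 ± 2.37% in the second quantification (SD, n = 2).

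Transcripts of the decay class took 31.2 ± 2.66% of Rbm20, 22.6 ± 2.35% of Celf2 and 6.41 ± 9.07% of Ptbp1 (SD, n = 2 for each). In Rbm20 this was the whole share outside the protein-coding class. Among 3170 protein-coding genes at 1 TPM or more in both libraries with a transcript of the decay class, the median share of that class was 3.66% and the upper quartile 14.4%. These background shares, like those for the other classes below, were computed in the first quantification only. Rbm20 and Celf2 thus lay above the upper quartile in the first quantification, and Ptbp1 lay below it. In the second, Rbm20 had 33.9 ± 2.59%, Celf2 4.85 ± 0.572% and Ptbp1 15.8 ± 5.09% (SD, n = 2 for each). Retained-intron transcripts took 11.9 ± 0.855% of Ptbp1, 12.04 ± 0.0491% of Rbm24, 5.11 ± 1.28% of Mbnl1 and 2.89 ± 0.881% of Mbnl2 (SD, n = 2 for each), with a median of 5.66% over 6582 genes with such transcripts. The upper quartile over those genes was 14.4%, above each of these shares. By the second route the shares were 6.93% for Ptbp1, 1.67% for Rbm24, 9.11% for Mbnl1 and 3.45% for Mbnl2. Ptbp1 and Rbm24 were thus lower and Mbnl1 higher than by the first route, and no median was computed for the second. Processed transcripts, a noncoding class, had an upper quartile of 14.3% over 5140 genes with such transcripts. The members above it were Mbnl2 (34.5 ± 0.522%), Celf1 (16.5 ± 1.11%) and Rbfox2 (15.6 ± 2.62%; SD, n = 2 for each). By the second route these had 10.7%, 19.5% and 0%.

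Further forms reached 10% by at least one route. In Celf1 these were Celf1-203 (11.1% and 13.9%), Celf1-213 (8.98% and 12.6%), Celf1-202 (10.5% and 5.63%) and Celf1-209 (4.30% and 4.60%, with 8.70% and 13.8% by the second route). In Celf2 they were Celf2-205 (4.63% and 14.4%) and Celf2-209, listed at 0 by the first route and at 15.1% and 22.0% by the second. Rbfox1-206 was likewise listed at 0 by the first route and at 12.1% and 12.3% by the second. The short noncoding Rbfox2-205 (13.7% and 17.4%) was listed at 0 by the second route, where Rbfox2-204 took 19.9% and 18.6%, against 15.4% and 11.3% by the first. In Ptbp1 they were Ptbp1-202 (10.5% and 17.2%), Ptbp1-209 (16.7% and 7.11%) and Ptbp1-203 (0.991% and 22.5%), of which the last pair were listed at 0 by the second route. The remaining alternative exons averaging 10 to 90% by the first route were a 31-base exon of Ptbp1 (98.8% and 75.1%), its longer 196-base version (90.1% and 5.88%), a noncoding 53-base exon of Celf1 (11.2% and 16.4%) and a 247-base exon of Mbnl3 (14.3% and 27.5%). By the second route the 31-base exon was at 100% in both libraries, and the 196-base version had no TPM to judge it by. Its first-route values rest on Ptbp1-215 (15.2 and 1.95 expected counts) against Ptbp1-203 (3.17 and 58.8).

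Between the libraries, 6 of the 10 members differed beyond sampling noise by the exact binomial test on counts, and the differences were small. Of all 17245 genes tested, 21.3% were called, 10.7% higher in replicate 1 and 10.6% higher in replicate 2. Among the more deeply counted genes, with 1000 or more counts summed over the libraries, 38.3% were called, and all members except Mbnl3 had that depth. Rbm24, Mbnl2 and Rbm20 were higher in replicate 1, and Celf1, Rbfox2 and Rbfox1 were higher in replicate 2. The members had a median log2 difference of 0.03, against 0.01 over all genes tested.

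Rbm24 had the largest difference of the members that passed, 1.23-fold higher in replicate 1 (log2 difference 0.30, adjusted p = 1.43e-28, exact binomial test with Benjamini-Hochberg adjustment over all genes). Celf1 was lower in replicate 1 by the next largest amount (log2 difference -0.21, adjusted p = 6.48e-07, exact binomial test). Rbfox2 (-0.14), Rbfox1 (-0.09), Rbm20 (0.13) and Mbnl2 (0.10) followed on the log2 scale. Mbnl1 did not pass (log2 difference -0.02, adjusted p = 0.360, exact binomial test), although it did in the second quantification (log2 difference -0.05, adjusted p = 0.0202, exact binomial test). Nor did Celf2 (-0.02), Ptbp1 (0.07) and Mbnl3 (0.23, adjusted p = 0.542, exact binomial test) pass. The differences of the members lay between 0.863-fold and 1.23-fold.

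Scaling by the added ERCC RNAs changed this picture. It moved the median of all genes to 0.30 in log2, and 9 of 10 members were then called, all higher in replicate 1. It adds the same amount to every gene, and Celf1, Rbfox1, Rbfox2, Mbnl1 and Celf2 changed sign with it. With scaling by total counts Rbfox1 no longer passed (adjusted p = 0.102, exact binomial test).

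**Figure D4:**
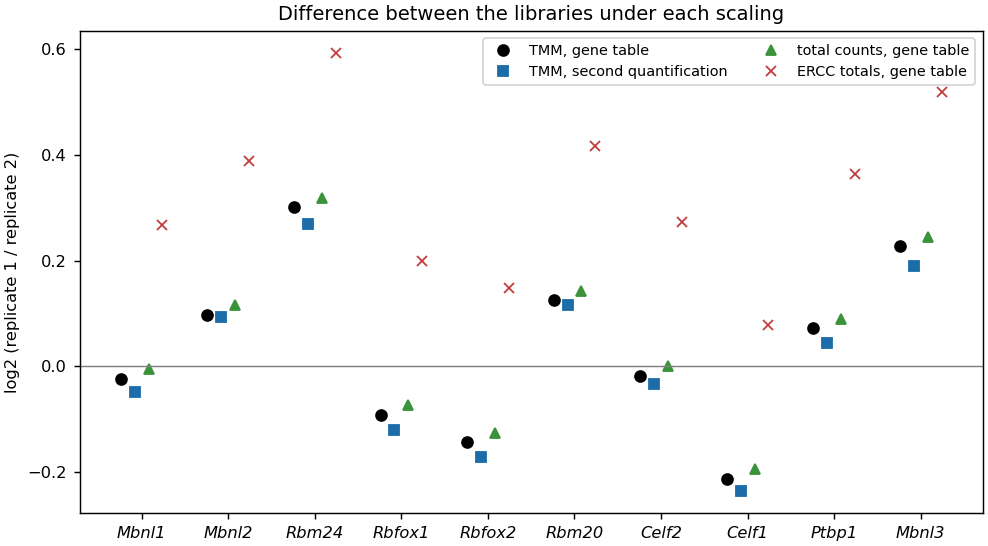
Log2 ratio of replicate 1 over replicate 2 for each member, in order of mean level, under TMM scaling of the gene table (black circles), TMM scaling of the second quantification (blue squares), total counts (green triangles) and ERCC totals (red crosses). Rbm24 lies at 0.30 and Celf1 at -0.21 under TMM, and the ERCC values, shifted by the same amount for every gene, all lie above 0.

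Markers of other cells moved between the libraries too. Their calls are to be read against 21.3% of all genes called, and 38.3% of those with 1000 or more counts. The fibre markers were counted so deeply that Myh4 was called at 0.947-fold. All 5 muscle fibre markers were called higher in replicate 2, with a summed level of 67960.1 TPM in replicate 1 and of 72594 TPM in replicate 2, and all 4 fibroblast markers were called higher in replicate 1 (1818 and 1317 TPM). Of 4 endothelial markers 2 were called higher in replicate 1 (131 and 114 TPM summed), and of 3 Schwann cell markers 1 was called higher in replicate 2 (56.6 and 83.9 TPM). Both erythroid markers were called higher in replicate 2 (514 and 693 TPM). Macrophage markers summed to 19.7 and 19.9 TPM, with 1 of 3 called, Mrc1, higher in replicate 1. Smooth muscle markers summed to 206 and 203 TPM. Of these 3, 2 were called in opposite directions, Myh11 higher in replicate 1 and Cnn1 higher in replicate 2. Satellite cell markers summed to 4.01 and 3.49 TPM, with 1 of 3 called, Calcr, at 0.66 TPM in replicate 1 and 0.34 TPM in replicate 2. ERCC scaling adds the same amount to every gene and moved the median of all genes from 0.01 to 0.30 in log2. Under TMM the fibre markers lay between -0.21 (Actn3) and -0.08 (Myh4), so the directions given here depend on the scaling. The part of these cells in the differences of the members was not tested.

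Close relatives of the members were mostly low. Of 9 paralogues, 4 reached 1 TPM in both libraries. Rbm38, the paralogue of Rbm24 (79.02 and 69.5 TPM), stood close to it, the ratio of Rbm24 to Rbm38 being 0.995 ± 0.0891 (SD, n = 2). Matr3, a nuclear matrix protein related to RBM20 in its RNA-binding parts, stood at 37.0 TPM in replicate 1 and at 31.2 TPM in replicate 2. Ptbp3 had 9.14 and 8.14 TPM and Ptbp2, the neuronal PTB protein, 7.59 and 5.93 TPM, so Ptbp1 was 1.95 ± 0.0497 times Ptbp3 and 2.51 ± 0.169 times Ptbp2 in TPM (SD, n = 2 for both). By the second route both ratios were 1.48, and expected counts gave 0.883 for Ptbp1 over Ptbp3 and 2.07 for Ptbp1 over Ptbp2. Of the 6 paralogues tested, these 4 were called higher in replicate 1 (log2 differences 0.12 for Rbm38, 0.15 for Matr3, 0.16 for Ptbp3 and 0.42 for Ptbp2). Of all genes tested, 10.7% were called higher in replicate 1. Among genes with 1000 or more counts, 38.3% were called in either direction. In the gene table Celf4, Celf5 and Celf6 stayed at or below 0.170 TPM in each library, Rbfox3 had 5 and 2 expected counts, and Celf3 was listed at 0, although the second quantification gave Celf3 0.122 and 0.527 TPM.

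Other splicing factors gave the setting of these levels. Their counts of calls are to be read against 10.7% of all genes called higher in replicate 1 and 10.6% higher in replicate 2, and 38.3% called either way among the more deeply counted genes. All 15 SR proteins and cofactors, which mostly promote exon use, reached 1 TPM in both libraries (median 20.9 TPM), and 7 were called higher in replicate 1 and 1 in replicate 2. Srsf5 had the largest of these differences (50.5 and 34.1 TPM, log2 difference 0.64), and Srrm2 (76.5 and 61.6 TPM), Son (43.7 and 37.9 TPM) and Srsf2 (33.0 and 33.1 TPM) were the others among the 4 most abundant. All 18 hnRNP genes reached 1 TPM (median 33.4 TPM), led by Hnrnpk at 139 ± 16.8 TPM and Hnrnpa2b1 at 114 ± 1.03 TPM (SD, n = 2 for both), close to Mbnl1 and Mbnl2, and followed by Hnrnpl (85.3 and 61.6 TPM) and Hnrnpa3 (65.2 and 63.6 TPM), with 5 called higher in replicate 1 and 1 in replicate 2. All 8 kinases of splicing factors reached 1 TPM (median 15.6 TPM), with 4 called higher in replicate 1, among them Clk1 (log2 difference 0.60), and 2 in replicate 2. They were led by Srpk3, a muscle form, at 30.8 ± 1.22 TPM (SD, n = 2), with Dyrk1a (27.4 and 28.3 TPM) and Clk4 (19.6 and 13.04 TPM) also among the highest. Of 29 other tissue-regulated factors 19 reached 1 TPM, led by Fxr1 (176 ± 1.61 TPM) and Qk (92.5 ± 2.45 TPM; SD, n = 2 for both), with 3 called higher in replicate 1 and 1 in replicate 2. Khdrbs2, with 15 and 3 expected counts, also passed with a fold over 1.5. Next in that list came Msi2 (74.5 and 69.6 TPM) and Tardbp (52.1 and 54.03 TPM). Among factors known from neurons, Nova1 (2.74 and 2.85 TPM) and Nova2 (1.5 and 1.26 TPM) exceeded 1 TPM in both libraries, while Elavl2, Elavl3, Elavl4, Srrm3 and Srrm4 did not in the gene table. The epithelial factors Esrp1 and Esrp2 were at or below 0.010 TPM.

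The median log2 differences were 0.15 for the paralogues, 0.13 for SR proteins, 0.04 for hnRNP genes, 0.08 for the kinases and 0.06 for the other factors, against 0.01 over all genes tested. ERCC scaling adds the same amount to every gene, so these splits between the libraries depend on the scaling.

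Several exons that the members are known to regulate were mostly in one form. All 40 listed genes with such exons reached 1 TPM (median 153 TPM), with 8 called higher in replicate 1 and 19 in replicate 2 and a median log2 difference of -0.05. Of all genes 21.3% were called, and of those with 1000 or more counts 38.3%. They were led by Tpm1, Tnnt3, Atp2a1 and Tpm2 (log2 differences -0.23, -0.14, -0.11 and -0.11). The 42-base exon of Atp2a1, the mark of the adult calcium pump and a target of MBNL, was included at 95.4% in replicate 1 and 95.7% in replicate 2. The 57-base exon of Cacna1s, the calcium channel of the T-tubule, was included at 97.8% and 98.2%, and the 15-base and 18-base exons of Ryr1, the calcium release channel, at 99.2 ± 0.199% and 98.9 ± 0.135% (SD, n = 2 for both). In Clcn1, the chloride channel lost in myotonia, an exon of 79 bases annotated only in transcripts of the decay class (chromosome 6, 42293444 to 42293522) was included at 7.41% in replicate 1 and 2.68% in replicate 2, and at 14.7% and 7.33% in the second quantification. The next exon downstream, of the same length and present in the coding transcripts, was included at 100% in both libraries and at 96.7% and 96.3% in the second quantification. Reads outside these exons also set their shares. The leading transcripts with and without the exon differ in 2796 bases for Atp2a1 and 16222 for the 18-base Ryr1 exon. For the Clcn1 exons the figures are 959 and 728, for Cacna1s 96 and for the 15-base Ryr1 exon 24.

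Other target exons were mixed. The 36-base exon of the insulin receptor gene Insr was included at 17.4% in replicate 1 and 22.2% in replicate 2. Of the mutually exclusive pair of exons of Pkm, of which PTBP1 represses the upstream one, the upstream exon was included at 53.8% in replicate 1 and 54.7% in replicate 2, and at 48.4% and 48.8% in the second quantification. The muscle exon of Capzb, an actin capping protein, was included at 87.8 ± 0.312% in the first and 48.5 ± 0.447% in the second quantification (SD, n = 2 for both). For Bin1 no alternative exon of the length sought, 45 bases, stood in the annotation. The leading transcripts compared differ in 8755 bases for Insr, 725 for the Pkm pair and 198 for Capzb, so reads outside the exons also set these shares. With 1 age and no altered animal, the shares of target exons show no effect of a member on a target.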

How the data were processed

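Total RNA-seq of 2 libraries was analysed from the deposited tables. The authors deposited expected counts (estimated reads, not whole) and TPM per gene and per transcript from transcriptome alignments, with the limits of an interval around each TPM (stored here as a signal), and estimated counts and TPM per transcript directly from the reads, on mm10 with GENCODE M21, per the file headers and the description deposited with them. For aligner and quantifiers, names were not given in the sources used. The tables held 40825601 and 37329025 counts, of which ERCC RNAs took 0.731% and 0.881%. Of the gene table, 26249 entries that are neither annotated genes nor ERCC RNAs were left out (7.35e-06% and 2.68e-06% of counts).

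Expected counts were rounded. Replicate 1 was compared with replicate 2 by a two-sided exact binomial test given TMM-scaled library sizes (edgeR 4.0.16, R 4.3.3; SciPy 1.17.1), for genes with at least 10 counts, with Benjamini-Hochberg adjustment over all genes at 0.05; DESeq2 1.42.0 gave alternative size factors. With 1 group there are no residual degrees of freedom for a quasi-likelihood test, and the test covers counting error only. Log2 differences used a prior count of 0.5. The procedure was tested on simulated counts that varied by counting error only, which is what the test assumes. That simulation says nothing about further variation between real libraries. Inclusion used internal exons in the annotation. The members and lists were chosen with earlier results of these data known. Named were all members, the 4 most abundant genes of each list and those called with a fold over 1.5, transcripts of at least 10% and exons included at 10 to 90%, plus the Mbnl1, Mbnl2, Rbfox1, Rbfox2 and Ptbp1 exons described; a few list genes outside this rule were picked with their values in view, and a gene inside it may be given only in counts. With 2 libraries no likeness of pattern between genes could be computed.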

Additional observations from a re-analysis of the deposited data

How the results depend on the processing

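Leaving out a library gave ranges of 1.15 to 1.22 for Mbnl1/Mbnl2, 155 to 202 for Mbnl1/Mbnl3, 134 to 165 for Mbnl2/Mbnl3, 6.49 to 7.84 for Mbnl1/Celf1, 0.759 to 0.883 for Celf1/Celf2, 1.13 to 1.22 for Rbfox1/Rbfox2, 2.39 to 2.63 for Ptbp1/Ptbp2, 1.92 to 1.99 for Ptbp1/Ptbp3, 2.34 to 2.57 for Rbm24/Rbm20 and 0.932 to 1.06 for Rbm24/Rbm38. In the second quantification the ratios became 1.90 for Mbnl1/Mbnl2, 218 for Mbnl1/Mbnl3, 114 for Mbnl2/Mbnl3, 9.72 for Mbnl1/Celf1, 0.668 for Celf1/Celf2, 1.39 for Rbfox1/Rbfox2, 1.48 for Ptbp1/Ptbp2 and 1.48 for Ptbp1/Ptbp3. From expected counts, which carry transcript length, they were 1.51 for Mbnl1/Mbnl2, 106 for Mbnl2/Mbnl3, 5.24 for Mbnl1/Celf1, 1.04 for Celf1/Celf2, 0.723 for Rbfox1/Rbfox2, 2.07 for Ptbp1/Ptbp2, 0.883 for Ptbp1/Ptbp3, 1.94 for Rbm24/Rbm20 and 1.60 for Rbm24/Rbm38. The second quantification gave 35.9% for the Mbnl1 54-base exon and 43.6%, 8.11% and 88.0% for the 54-base, 36-base and 95-base exons of Mbnl2. Protein-coding transcripts alone gave 60.002% for the Mbnl1 36-base exon and 100% for the Mbnl2 95-base exon. Shares of expected counts gave 13.6% for the Mbnl2 54-base and 61.5% for the Mbnl2 95-base exon. Except where the construction shows it, the cause was not tested. ERCC scaling called 9052 genes, 8756 of them higher in replicate 1, against 3671 and 1848 with TMM, and turned the log2 differences of Mbnl1 (0.27), Celf1 (0.078), Celf2 (0.27), Rbfox1 (0.20) and Rbfox2 (0.15); Celf1 was then not called. Other scalings, filters and the second quantification called 3403 to 4027 genes and 5 to 7 members. Mbnl1 passed in the second quantification (log2 difference -0.05, adjusted p = 0.0202, exact binomial test). Mbnl3 had 104 and 80.0 expected counts, the fewest of the members, so a difference in it is the least detectable. No paired analysis was possible because the series has 1 group. The second-quantification alternative for transcript shares was chosen after seeing the data.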
